A study of Mus musculus with 6 samples.

Results

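Accessible chromatin around 4 loci of the pluripotency network was described in R1 mouse embryonic stem cells that had been differentiated with retinoic acid. The members were all accessible regions that overlap a window named for Pou5f1 (chr17:35340000-35940000), Nanog (chr6:122350000-122950000), Klf4 (chr4:55240000-55840000) or Esrrb (chr12:87400000-88150000) in mm9, so they were chosen by position and not by any measured value. They numbered 746 of 495233 regions, or 0.151%, with 174 in the Pou5f1 window, 175 in the Nanog window, 128 in the Klf4 window and 269 in the Esrrb window. The Esrrb window spans 750 kb and the others 600 kb each. Of these regions, 2 cross a window edge and none lies in more than 1 window. R1 is a line of mouse embryonic stem cells. The cells were kept with 1000 U/ml LIF and 15% serum replacement, aggregated as embryoid bodies in hanging drops for 48 h, and then given retinoic acid, labelled as 0.5 mM, for up to 6 days, with sampling at day 6 per the titles. The unit of that dose is uncertain, since micromolar doses are usual. ATAC-seq, which marks open DNA by the insertion of adapters with Tn5 transposase, was made on 3 samples, and RNA-seq of polyadenylated RNA on 3 others. All 6 samples share this treatment and no untreated cells were analysed here, so the values are levels at day 6. The region set is joint over the 3 ATAC-seq samples, which leaves no spread between samples for any region, and its depth is unknown. Whether replicates are separate cultures is not stated, so the spread between RNA-seq replicates may be technical.

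Pou5f1 (also called Oct4), Nanog, Klf4 and Esrrb encode transcription factors that hold mouse embryonic stem cells in the self-renewing state. Pou5f1 is a POU factor that binds DNA together with Sox2, Nanog is a homeodomain protein, Klf4 is a zinc finger protein that binds GC-rich sites, and Esrrb is an orphan nuclear receptor. Each acts on the genes of the others, and the network is shut down when the cells leave pluripotency. Klf4 and Esrrb are also used by differentiated tissues, Klf4 in epithelia and endoderm and Esrrb in placenta and inner ear. Open chromatin around such genes marks promoters, enhancers and insulators, of the named gene or of its neighbours.

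The sequence just upstream of the named genes is printed for the 3 genes whose first listed start had a searched motif within the 250 bases before it. It was taken from RefSeq on build GRCm38.p6, whose positions differ from the mm9 positions of the regions and were not compared with them, so it is not known from these data whether a region covers a given promoter. All 4 genes were matched, with 7 start sites among them, and the first listed for Pou5f1, Nanog and Klf4 is shown 5′ to 3′ over the 250 bases before the start. Capitals mark the searched motifs: the octamer core TTTGCAT, the Sox core ACAATG, the extended nuclear receptor site AAGGTCA, the GC box GGGCGG and the TATA motif TATAAA, each on either strand.
Nanog (chr6:122707239-122707488, plus strand): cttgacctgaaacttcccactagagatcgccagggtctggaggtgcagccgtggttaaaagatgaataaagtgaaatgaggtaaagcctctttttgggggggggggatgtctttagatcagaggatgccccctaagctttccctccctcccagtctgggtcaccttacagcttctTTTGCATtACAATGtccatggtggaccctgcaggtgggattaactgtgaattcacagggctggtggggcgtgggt
Pou5f1 (chr17:35505782-35506031, plus strand): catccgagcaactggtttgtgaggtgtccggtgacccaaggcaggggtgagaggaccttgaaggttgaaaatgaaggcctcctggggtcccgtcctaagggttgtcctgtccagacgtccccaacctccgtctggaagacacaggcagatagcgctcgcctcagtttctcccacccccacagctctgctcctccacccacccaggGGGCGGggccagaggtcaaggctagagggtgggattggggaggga
Klf4 (chr4:55532476-55532725, minus strand): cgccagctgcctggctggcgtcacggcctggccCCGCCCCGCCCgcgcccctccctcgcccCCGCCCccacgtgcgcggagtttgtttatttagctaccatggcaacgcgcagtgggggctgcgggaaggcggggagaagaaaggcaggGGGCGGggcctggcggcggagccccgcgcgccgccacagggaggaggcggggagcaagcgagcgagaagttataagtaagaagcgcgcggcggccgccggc

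The Nanog promoter held an octamer core beginning 75 bases before the start and a Sox core beginning 67 bases before it, separated by 1 base. The octamer core occurs in 4.12% and the Sox core in 10.7% of all 32851 RefSeq promoters of the same length. The Pou5f1 promoter shown held 1 GC box, beginning 45 bases before the start, and the Klf4 promoter 4, of which the 2 farthest upstream overlap by 1 base. The GC box occurs in 32.7% of all promoters. The 250 bases before the second Pou5f1 start, not shown, had no GC box and held a Sox core beginning 158 bases before it. Those before the second Nanog start, not shown, overlap the sequence printed and hold the same octamer and Sox cores. The GC content was 74% upstream of Klf4, 62% upstream of Pou5f1 and 52% upstream of Nanog, against a median of 52.4% over all promoters. Neither Esrrb start site had a match to any of the 5 motifs within its 250 bases, and no window gene had AAGGTCA (4.08% of all promoters) or TATAAA (12.4%) there. A match is a run of letters and not a measured site.

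The windows differed in how densely accessible regions lay. The Esrrb window was the most crowded of the 4, with 359 regions per Mb, and the Klf4 window the sparsest, with 213 regions per Mb. The Nanog and Pou5f1 windows lay between at 292 and 290 regions per Mb. To place these values, the genome was divided into consecutive tiles of the same length, 4291 tiles of 600 kb and 3430 of 750 kb. The median 600 kb tile held 119 regions and the median 750 kb tile 149. At least as many regions as in the Esrrb window were found in 5.07% of tiles, as in the Nanog window in 24.3%, as in the Pou5f1 window in 24.8% and as in the Klf4 window in 46.5%. Regions covered 20.6% of the Esrrb window, 17.7% of the Pou5f1 window, 15.4% of the Nanog window and 10.5% of the Klf4 window. The covered share was not computed for the tiles, so these values cannot be placed within the genome. The window edges were set by the choice of loci, and loci in gene-rich DNA were not separated from others in this comparison.

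The order changed for strong regions. Each region carries a score given by the authors, whose scale is not given, so it was used for rank alone. A region is called high-scoring here if its score was at least 17.5, the 90th percentile of the whole set, which holds for 10% of all regions. In the Pou5f1 window 32 of 174 regions were high-scoring, or 18.4% (95% Wilson interval 13.3 to 24.8%, for counting error only), and in the Nanog window 31 of 175, or 17.7% (12.8 to 24.0%). The Klf4 window had 19 of 128, or 14.8% (9.71 to 22.0%), and the Esrrb window 25 of 269, or 9.29% (6.37 to 13.4%). The shares of the Pou5f1 and Nanog windows were above that of the whole set, and the Esrrb share was close to it. The Klf4 share was also higher, but its interval holds the 10% of the whole set, as does that of Esrrb. The intervals treat regions as independent, but regions of 1 locus are not replicates. They may therefore be too narrow and do not sort the windows, and no test was made between windows. Counted per tile, at least as many high-scoring regions as in the Pou5f1 window were found in 3.17% of tiles, as in the Nanog window in 3.71%, as in the Esrrb window in 18.4% and as in the Klf4 window in 22.5%. Among the 4, the Esrrb window had the highest density of regions and the smallest share of high-scoring ones.

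**Figure D1:**
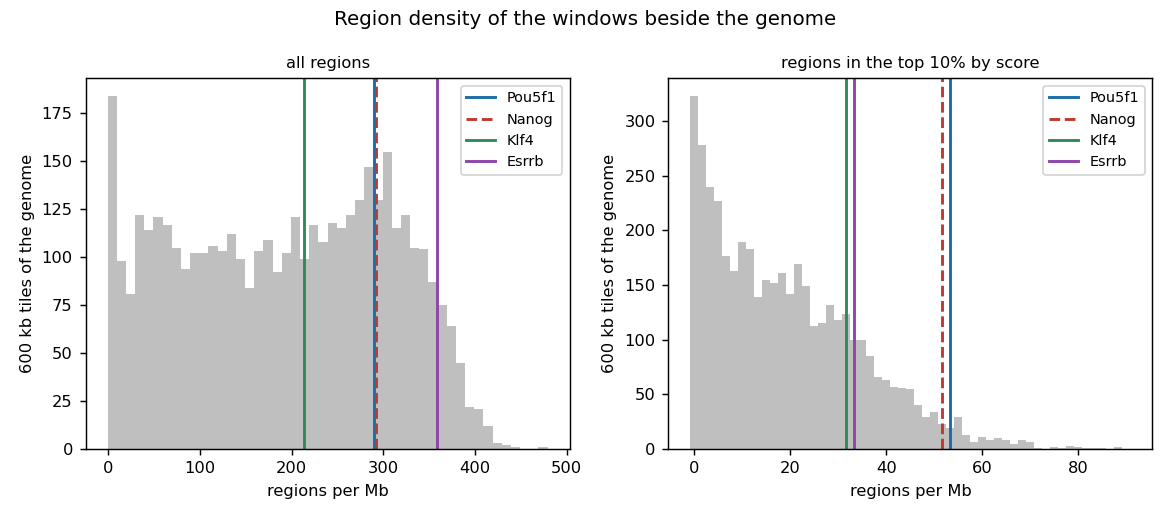
Regions per Mb in 600 kb tiles of the genome (grey bars, number of tiles) for all regions and for the top 10% by score, with a vertical line for each window, where the Esrrb value comes from 750 kb. Esrrb lies farthest right among all regions, at 359 per Mb, but Pou5f1 and Nanog lie farthest right among strong ones.

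The order of the windows by median score differed from that by share of high-scoring regions. The median score was 6.34 in the Pou5f1 window, 5.74 in the Esrrb window, 5.67 in the Klf4 window and 5.60 in the Nanog window, against 5.24 in the whole set. The lowest members stood at 3.63 to 3.65 in each window, close to the floor of the whole set at 3.62. Scores reached 366 in the Nanog window, 356 in the Klf4 window, 208 in the Esrrb window and 183 in the Pou5f1 window, while the highest of the whole set was 3886. Of all regions, 50% reach the median score of the set by definition. In the Pou5f1 window 115 of 174 regions (66.1%) did so, in the Klf4 window 80 of 128 (62.5%), in the Esrrb window 149 of 269 (55.4%) and in the Nanog window 93 of 175 (53.1%). At the 99th percentile, a score of 151, where 1.00% of all regions are found, the Nanog window had 4 regions, the Klf4 and Esrrb windows 2 each and the Pou5f1 window 1. At the median the Nanog window was near the whole set, whereas the Pou5f1 window was shifted upward. Both had larger shares of high-scoring regions than the whole set, at 17.7% for Nanog and 18.4% for Pou5f1 against 10%. At the 99th percentile the shares were 2.29% for Nanog and 0.575% for Pou5f1, against 1.00%. These rest on 4 regions and 1 region, too few to separate the 2 windows in the uppermost class.

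**Figure D2:**
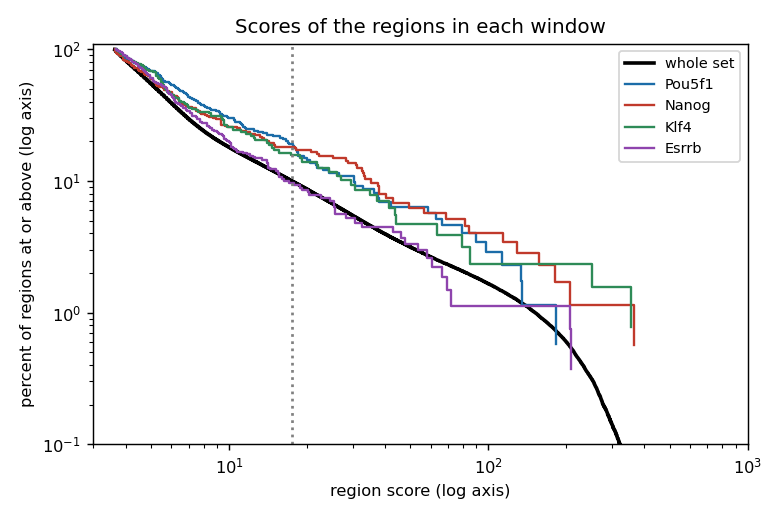
Percent of regions at or above each score, for the whole set (black) and the 4 windows, on log axes, with the 90th percentile of the whole set dotted. At that score the Pou5f1, Nanog and Klf4 lines stand above the black line, at 18.4%, 17.7% and 14.8%, and the Esrrb line close to it, at 9.29%.

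In the Pou5f1 window high-scoring regions lay on both sides of the centre, and none of the 3 regions closest to it was high-scoring. A window centre is a position and was not matched to the start of the gene. The 3 regions nearest to the centre had scores of 6.40, 6.39 and 3.65. The first 2 were above the window median of 6.34, and the last, chr17:35638233-35638552, is the lowest-scoring of all 174. The highest score, 183, belonged to chr17:35652624-35654451, a region of 1828 bp that lies 13.5 kb above the centre and ranks 3572nd in the whole set. Closer in, 6.42 kb above the centre, chr17:35646123-35646717 reached 20.6. At 3.77 kb above it, chr17:35643104-35644436 spans 1333 bp and scored 16.9, just under the high-scoring limit. The next 4 lay toward the edges: chr17:35377755-35379922 (score 135) and chr17:35399401-35400962 (98.1) at 261 and 240 kb below the centre, and chr17:35803998-35805099 (134) and chr17:35810153-35810979 (113) at 165 and 171 kb above it. The widest region, chr17:35836582-35839454, spans 2873 bp with a score of 58.4, and the next in width, chr17:35377755-35379922 and chr17:35371752-35373886 (score 89.4), span 2168 and 2135 bp.

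The same window held the longest stretch without an accessible region of the 4, at 37418 bp, which ends at a region 84.8 kb below the centre. The 50 kb bin from 150 to 100 kb below the centre held 2 regions, against 10 to 22 in the other bins of this window. One of these 2 had a score of 62.7. By gene order in RefSeq, the genes before Pou5f1 are the H2-Q class I histocompatibility genes, which are near-identical copies. The labels do not say whether reads that match several copies were kept, and their part in this stretch was not tested.

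In the Nanog window the strong regions gathered above the centre. Of the 78 regions above it, 19 were high-scoring (24.4%), and of the 97 below it, 12 were (12.4%). From 50 to 200 kb above the centre the 50 kb bins held 5, 6 and 4 high-scoring regions, and from 200 to 300 kb above it they held none. The highest score of all members, 366, belonged to chr6:122760289-122762449, 111 kb above the centre, which ranks 221st among all 495233 regions. It was followed by chr6:122823910-122825394 (206) at 175 kb, chr6:122722426-122723426 (181) at 72.9 kb and, below the centre, chr6:122435541-122437393 (157) at 214 kb. The widest region, chr6:122773931-122777022, spans 3092 bp and scored 129. The next in width, chr6:122691440-122693772 and chr6:122828494-122830655, span 2333 and 2162 bp and scored 49.4 and 25.2.

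Closer to the centre of the Nanog window the scores were lower. The nearest region, chr6:122652043-122653291, had a score of 28.3, within the top 5.87% of the set, and the next were at 5.12 and 4.72. Within 50 kb of the centre the highest score was 84.4, for chr6:122619281-122620170 at 30.3 kb below. High-scoring regions of this window also lay close to each other, where 20 of 31 (64.5%) had another within 5 kb. The share was 17 of 32 (53.1%) in the Pou5f1 window, 9 of 25 (36.0%) in the Esrrb window and 4 of 19 (21.1%) in the Klf4 window. Of all high-scoring regions it was 33.3%. Such a share can rise with the number of high-scoring regions in a window, and no comparison at like density was made.

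The Klf4 window had few regions, but a very wide and strong one near its centre. This region, chr4:55542921-55546969, spans 4049 bp, the widest of all 746 members, and has its midpoint 4.94 kb above the centre. Its score of 251 ranks 1534th in the whole set, within the top 0.310%. The highest score of the window, 356, was that of chr4:55361240-55363765, 177 kb below the centre, which ranks 281st in the whole set. These were followed by chr4:55527502-55528191 (84.8), 12.2 kb below the centre, and chr4:55663448-55666086 (79.3), 125 kb above it, which at 2639 bp is the second widest. The fifth highest was chr4:55316921-55317637 (63.2), 223 kb below the centre. The nearest 3 regions to the centre scored 10.4, 5.62 and 4.31.

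The bins of 50 kb on either side of the Klf4 centre held 3 and 4 high-scoring regions of 12 and 10, where the other bins held at most 3. Farther above the centre high-scoring regions were few: from 50 to 300 kb each bin had at most 1. Regions were spaced farther apart than in the other windows, with a median gap of 2984 bp, against 1744 bp in the Pou5f1 window, 1777 bp in the Nanog window, 1618 bp in the Esrrb window and 2074 bp in the whole set.

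The Esrrb window was evenly filled with regions, and its highest scores lay more than 188 kb from the centre. The median score of the window was 5.74, against 5.24 in the whole set. Its 50 kb bins held 12 to 21 regions each, and its longest gap was 12407 bp, the shortest of the 4 windows. Within 188 kb of the centre 9 of 138 regions were high-scoring (6.52%), with a highest score of 45.9, and farther out 16 of 131 were (12.2%), with scores up to 208. The 2 highest were chr12:87582053-87583571 (208), 192 kb below the centre, and chr12:88066590-88067812 (207), 292 kb above it. The next, chr12:88019276-88020872, scored 71.5. The last bin, from 325 to 375 kb above the centre, held 7 of the 25 high-scoring regions, and no other bin held more than 2. Among these 7 were chr12:88136442-88137418 (69.6) and chr12:88141715-88143885 (58.2), which spans 2171 bp. Near the other edge chr12:87419352-87420926 scored 66.2, the fifth highest of the window.

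At the centre of the Esrrb window a strong and a weak region stood side by side. The region chr12:87774054-87774799 had a score of 42.9, within the top 3.68% of the set, and chr12:87775042-87775718, 242 bp from it, had 3.87. The third nearest spans 1543 bp at a score of 7.49. The widest region of the window, chr12:87895783-87898361, spans 2579 bp and with a score of 16.2 was not high-scoring. The third widest, chr12:87849873-87851759, spans 1887 bp and scored 45.9. The plot of scores along the windows shows these patterns.

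**Figure D3:**
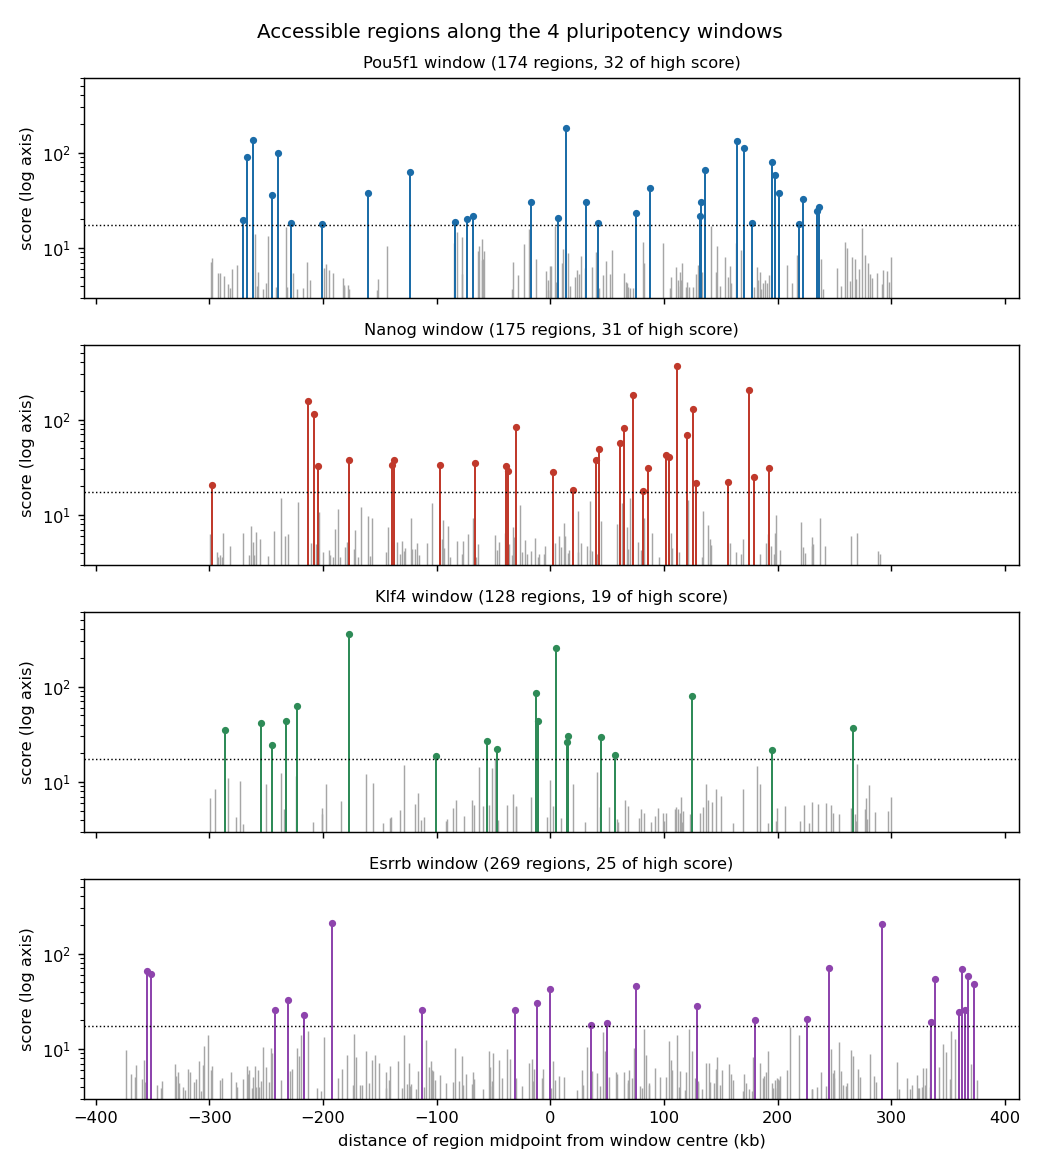
Score of each region (log axis) against the distance of its midpoint from the window centre in kb, in 4 panels, with high-scoring regions in colour, others in grey and the 90th percentile of the whole set dotted. Strong regions gather above the centre for Nanog and include 1 of score 251 near the centre for Klf4, with weaker high-scoring ones on either side. For Esrrb the highest scores lie farther out, and no region within 188 kb of the centre exceeds 45.9.

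Width and score went together among the members as in the whole set. Spearman's rho between them was 0.71 in the Pou5f1 window (174 regions), 0.72 in the Nanog window (175), 0.79 in the Klf4 window (128) and 0.70 in the Esrrb window (269), and 0.73 over the whole set. These coefficients are across regions of a joint set, which share its depth and caller, and carry no p-value. High-scoring members had a median width of 893 bp and the others of 339 bp. Of all regions, 8.68% were at least 1000 bp wide. In the Pou5f1 window 28 of 174 (16.1%) were, in the Esrrb window 36 of 269 (13.4%), in the Nanog window 17 of 175 (9.71%) and in the Klf4 window 8 of 128 (6.25%). Of those wide regions, 13 of 36 were high-scoring in the Esrrb window, 13 of 17 in the Nanog window, 15 of 28 in the Pou5f1 window and 4 of 8 in the Klf4 window, against 54.6% of the wide regions of the whole set. Ranked by score divided by width, 4.83% of the Esrrb regions fell into the top 10% of the whole set, against 14.9% for Pou5f1, 16.6% for Nanog and 14.1% for Klf4.

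**Figure D4:**
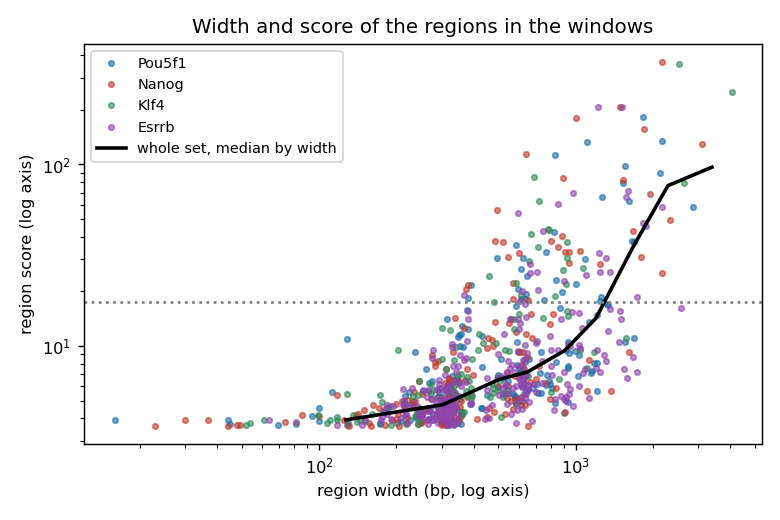
Score against width in bp for the 746 members, on log axes, coloured by window, with the median score by width in the whole set (black) and the 90th percentile of its scores dotted. Many Esrrb regions of 1000 bp or more lie under the dotted line, while the widest region, of Klf4, spans 4049 bp and lies far above it.

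The named genes themselves were expressed at very different levels, in FPKM (fragments scaled to transcript length and to the fragments mapped). Nanog was listed at 0.0595, 0.122 and 0.0818 FPKM in replicates 1 to 3, a mean of 0.0879 ± 0.0318 (SD, n = 3). Pou5f1 was listed at 0.737, 0.814 and 0.895 FPKM, a mean of 0.815 ± 0.0792. Neither gene reached 1 FPKM in a replicate, the level called expressed here, which 50.7% of 24002 genes met in every replicate. Esrrb was listed at 6.26, 6.33 and 5.91 FPKM (6.17 ± 0.222) and Klf4 at 7.69, 11.9 and 11.7 FPKM (10.4 ± 2.35). The order Nanog, Pou5f1, Esrrb, Klf4 held in every replicate, and the ranges of the 4 genes did not overlap. No test was made, since the design holds 1 condition. Of the 2 windows with the largest shares of high-scoring regions, both were named for genes under 1 FPKM. With 4 windows no relation between accessibility and expression can be tested.

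Klf4 was lower in replicate 1 than in both others, as were 26.4% of all genes. The same held for Pou5f1 and Nanog, for 11 of 21 other pluripotency genes, for each of 6 extraembryonic endoderm markers and for 1 of 6 neural markers, Olig2. Gata4, a regulator of the endoderm lineage, was listed at 10.5, 15.6 and 16.7 FPKM, and Sparc, a matrix gene that parietal endoderm makes in large amounts, at 228, 287 and 293 FPKM. The summed level of the 6 endoderm markers was 355, 474 and 482 FPKM in the 3 replicates, and none of them was at 0. Their part in the Klf4 level was not tested. Esrrb did not share this pattern, being lowest in replicate 3. All 6 neural markers were expressed as well, with Tubb3, a neuronal tubulin, at 645 ± 8.48 FPKM (SD, n = 3) and Olig2, a factor of motor neuron progenitors, at 33.5 ± 1.18. In bulk samples, more cells of a type and more RNA per cell cannot be told apart, and the same holds for the accessible regions, which cannot be assigned to a cell type. The samples are labelled as embryonic stem cells. Of 6 markers of that state, 3 were expressed, a share of 50% that is near the 50.7% of all genes: Esrrb, Zfp42 at 2.14 ± 0.542 and Dppa5a at 15.6 ± 2.48 FPKM.

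**Figure D5:**
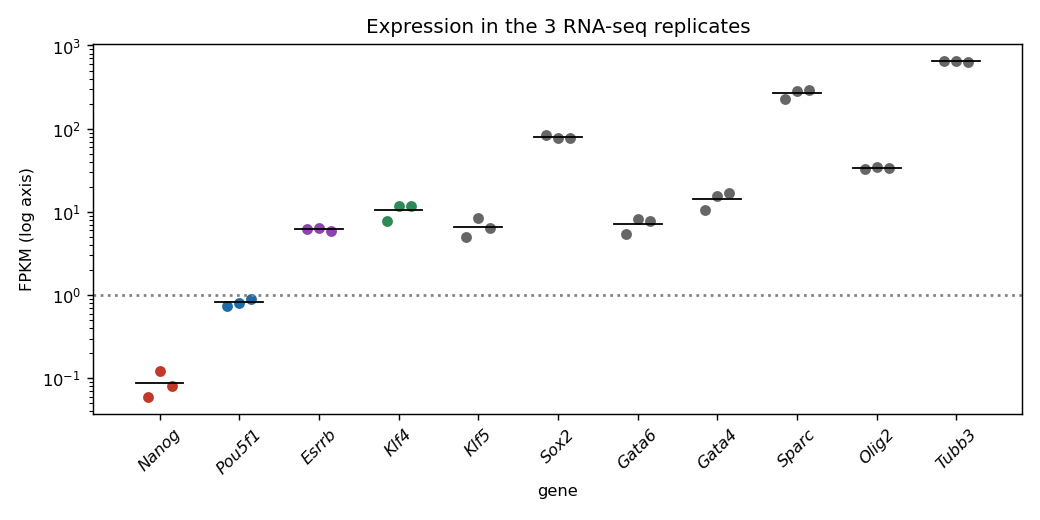
FPKM in the 3 RNA-seq replicates (points, in the order 1, 2, 3 from left to right; line, mean; log axis; dotted line, 1 FPKM) for the 4 named genes, Klf5, Sox2 and markers of endoderm (Gata6, Gata4, Sparc) and of neural cells (Olig2, Tubb3). Nanog and Pou5f1 lie under 1 FPKM, and all genes shown but Esrrb, Sox2 and Tubb3 are lowest in replicate 1.

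Other genes of the pluripotency network were split in the same way. Of 21 listed, 8 were expressed (38.1%, against 50.7% of all genes), with a median level of 0.665 FPKM, against 1.31 over all genes. Sox2, the partner of Pou5f1 on DNA, which neural progenitors also use, led with 79.5 ± 4.57 FPKM (SD, n = 3). It was followed by Stat3, the transducer of the LIF signal, at 24.1 ± 0.586, Dppa5a, and Klf5, a relative of Klf4, at 6.60 ± 1.72. Sall4 (4.20 ± 0.528), Lin28a (3.22 ± 0.266), Zfp42 and Tbx3 (1.66 ± 0.132) were the others above the threshold. The naive-state factors Tfcp2l1 and Klf2 stood at 0.459 ± 0.0519 and 0.665 ± 0.124 FPKM. Fgf4, a target shared by Pou5f1 and Sox2, stood at 0.0185 ± 0.00484, and Tcl1 was listed at 0 in every replicate.

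The windows also hold other genes, which were taken by gene order as the 10 nearest on each side in RefSeq that are in the expression table. Gene order gives no distance in mm9, so some of these neighbours may lie outside the windows. Of the 80 neighbours 41 were expressed (51.2%), near the 50.7% of all genes. The count was 14 of 20 around Esrrb, 12 of 20 around Klf4, 9 of 20 around Pou5f1 and 6 of 20 around Nanog. At a threshold of 5 FPKM this order did not hold, with 9 around Esrrb, 6 around Nanog and 4 each around Klf4 and Pou5f1.

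The genes beside Nanog differed widely in level. Next to it on one side are Dppa3, a gene of germ cells and naive pluripotency, listed at 0.113, 0 and 0 FPKM in the replicates, and Gdf3, a growth factor gene of the same cells, at 0.0698 ± 0.0284 FPKM (SD, n = 3). Slc2a3, the neuronal glucose transporter gene on the other side, stood at 42.0 ± 2.58 FPKM. Farther along on the side of Slc2a3, Necap1, an endocytosis gene, stood at 34.6 ± 0.846. On the side of Dppa3 and Gdf3, Rimklb, which encodes an amino acid ligase, stood at 41.1 ± 0.832. On that side too, M6pr stood at 23.0 ± 1.44 and Phc1, a Polycomb gene, at 21.7 ± 0.535. The 5 Clec4 genes, which encode lectins of myeloid cells, were listed at 0 in every replicate.

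Beside Klf4 the nearest expressed gene was Rad23b, a DNA repair gene, at 76.4 ± 1.63 FPKM (SD, n = 3), the highest of its neighbours, followed by Zfp462, which encodes a zinc finger protein, at 30.6 ± 1.64. Both come before Klf4 in chromosome order. The genes directly after it, Actl7b and Actl7a, which are used in the testis, were near 0, Actl7b at 0.0545 ± 0.0110 and Actl7a listed at 0.0259, 0 and 0 FPKM in the replicates. Around Esrrb the highest were Irf2bpl at 33.8 ± 1.58, Vash1, an angiogenesis inhibitor gene, at 29.3 ± 1.47, and 0610007P14Rik at 21.4 ± 1.04, while Gpatch2l, directly before Esrrb, stood at 9.09 ± 0.301. Around Pou5f1 the class I genes H2-D1 and H2-Q4 stood at 37.6 ± 1.65 and 17.8 ± 0.455 FPKM, values that are uncertain because copies of these genes share sequence. Tcf19 and Cchcr1, directly after Pou5f1, stood at 4.24 ± 0.144 and 3.00 ± 0.103. The miRNA gene Mir8094 near H2-D1 was listed at 572 ± 119 FPKM. Few fragments can give a large value for a very short gene, and the cause of this value was not tested.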

How the data were processed

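Accessible regions came as a joint set that the descriptions of all 3 ATAC-seq samples name, with a score per region deposited by the authors. The sources used here do not give its scale, the caller, the threshold, the Tn5 offset or any pooling. Regions did not overlap, and the shortest gap was 151 bp. The expression table holds 1 column per RNA-seq sample, read as FPKM deposited by the authors, since the submitters' processing notes name Cufflinks, Bowtie and mm9. Samples were grouped by title.

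Regions overlapping a window by any base were taken with pandas 2.3.3, and coordinates are 1-based. Tiles ran from the first to the last region of each chromosome. Wilson intervals came from scipy 1.17.1. The functions were tested on simulated regions. An mm9 genome or annotation was not used here, so regions were not assigned to genes.

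Regions were named, or for some near the centre given by score, by the rule of the 5 highest, the 3 widest and the 3 nearest to the centre of each window, and a few others were chosen after their values were seen. Genes named are the window genes, a pluripotency list, markers and RefSeq neighbours. Windows and lists were chosen with earlier results of these data known. Alternatives were other overlap rules, minima for score and width, merging, inner windows, shifted tiles, other expression thresholds and replicates left out. Tiles on autosomes alone were added after seeing the data.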

Additional observations from a re-analysis of the deposited data

How the results depend on the processing

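Of 96 alternative values, 71 were counted as unchanged, by a limit of 1.5 times the main count, the 95% interval of a share or median, or 1 SD. This count does not measure robustness, since some outcomes were fixed in advance. With 3 replicates, leaving 1 out cannot move the mean by 1 SD. The top 5% and top 25% shares were set against the interval of the top 10% share, an unlike measure. The covered shares were counted as changed with no limit applied. With regions at or above the median score alone, the windows of Pou5f1, Nanog, Klf4 and Esrrb held 115, 93, 80 and 149 regions, which covered 14.6%, 11.3%, 8.48% and 15.1% of them. At or above the 75th percentile they held 66, 57, 42 and 75 regions. These are smaller by construction. The share of high-scoring regions at a top 5% limit was 8.62%, 12%, 7.81% and 4.46%, and at a top 25% limit 37.9%, 32.6%, 32.8% and 27.9%, so at both the Esrrb window had the smallest share, while Nanog passed Pou5f1 at the top 5%. By score per width the Esrrb share was 4.83%; the cause was not tested. In the inner part of the Nanog window, tiles at least as dense made up 13.0% in place of 24.3%, so the density there depends on the window edges. At 5 FPKM, 4, 6, 4 and 9 neighbours of Pou5f1, Nanog, Klf4 and Esrrb were expressed, so Nanog was no longer last. Without each replicate in turn the mean was 0.776 to 0.855 FPKM for Pou5f1, 0.0707 to 0.102 for Nanog, 9.67 to 11.8 for Klf4 and 6.09 to 6.29 for Esrrb. No paired analysis was possible because each assay has 1 group and the region set is joint. Depth is unknown for both assays, so a region not listed may be weak and not absent.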
